A study of Ovis aries with 48 samples.

Results

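Visceral and subcutaneous fat of 4 female sheep exposed to bisphenol A (BPA) before birth were compared by small RNA sequencing. The 8 libraries are those labelled with BPA treatment in the 2 depots, out of 48 libraries in the series. The mothers of these sheep had been given BPA in corn oil daily under the skin at 0.5 mg per kg from day 30 to day 90 of gestation. Each of the 4 sheep (numbers 910, 918, 977 and 984) gave 1 visceral and 1 subcutaneous library, so every comparison of depots was made within a sheep. Beside them stand 3 sets of 4 sheep that gave the same 2 depots. These are the vehicle controls of the same cohort, whose mothers received corn oil, and, in a second cohort, prenatal T sheep, whose mothers received testosterone propionate over the same days of gestation, with their own controls. Animals of both cohorts were kept together on a maintenance diet. Their age at sampling was not stated in the labels.

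MicroRNAs are short RNAs that guide the silencing of messenger RNAs. Many are cut from the transcripts of clusters of neighbouring genes, so that a cluster's members tend to move together. Small nucleolar RNAs (snoRNAs) guide modification of ribosomal RNA, small nuclear RNAs (snRNAs) belong to the splicing machinery, and long non-coding RNAs (lncRNAs) appear in a small RNA library mostly as fragments or as the small RNAs that lie inside them. Visceral fat lies in the body cavity under a mesothelium, an epithelium-like sheet, and subcutaneous fat lies under the skin. The depots arise from different embryonic regions and keep different patterns of developmental genes.

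Library depth ranged from 270435 to 1547534 reads over the 4 classes of RNA, with a median of 682689. Reads of microRNAs were 85.8% ± 1.03 of the total in visceral and 84.6% ± 0.530 in subcutaneous fat (SD, n = 4 each), and lncRNAs 12.6% ± 0.928 and 12.5% ± 0.431. The snoRNA share was 1.42% ± 0.338 in visceral and 2.45% ± 0.384 in subcutaneous fat, lower in visceral fat in 4 of 4 sheep. The snRNA share was 0.203% ± 0.0447 in visceral and 0.431% ± 0.189 in subcutaneous fat, also lower in 4 of 4. An exact two-sided sign-flip test over the 4 pairs gave p = 0.125 for each of these 2 shares, the smallest it can give (adjusted over 6 shares, 0.188), so that no share can pass with 4 sheep. Library numbers in the labels fall in an early set (up to 48) and a later set (from 81 on). The only early library among the 8 was visceral fat of sheep 918, whose snoRNA share of 0.914% was the lowest. Leaving out sheep 918 is therefore also the comparison within the later set, where the snoRNA share still differed by -0.978 percentage points.

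Values below are normalised reads, the deposited values put on 1 scale over the 8 libraries of a class. Differences are log2, visceral minus subcutaneous, on log2(value + 1), and a call is an adjusted p under 0.05 in limma with sheep as a block (Benjamini-Hochberg within a class). Of 462 features with a mean of at least 5, 43 were called (9.31%), 27 higher (5.84%) and 16 lower (3.46%) in visceral fat. MicroRNAs held most of them, 38 of 74 (51.4%): 22 rose (29.7%) and 16 fell (21.6%). Of 154 lncRNAs, 5 rose (3.25%) and 0 fell. No snoRNA of 197 (0%) and no snRNA of 37 (0%) was called by limma, with 39 and 4 at an unadjusted p under 0.05. edgeR called 0 snoRNAs and 3 snRNAs, and DESeq2 called 2 snoRNAs and 0 snRNAs. The 38 microRNA calls became 21 without sheep 977 and 25 without sheep 984, and 18 on the CPM scale, where each library's microRNA reads have the same total. In whole pieces of fat, fewer cells of a type and less RNA per cell cannot be told apart.

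**Figure D1:**
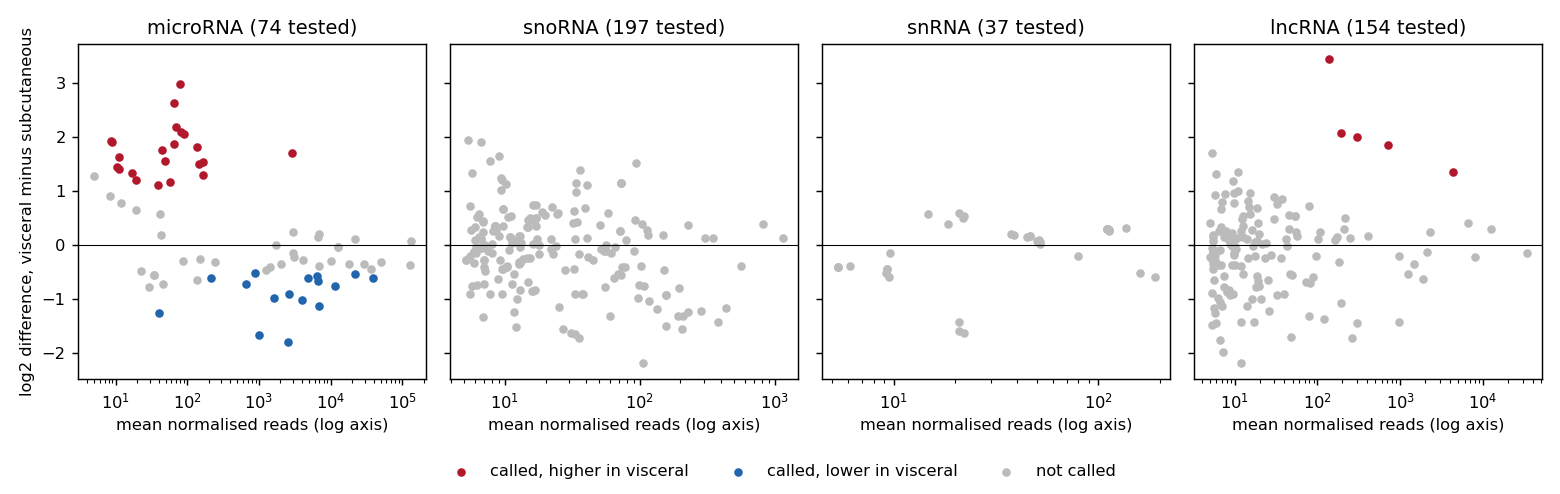
Each point is 1 of the tested small RNAs, by class, with its mean normalised reads over the 8 libraries (x, log axis) and its log2 difference, visceral minus subcutaneous (y). Red points were called higher and blue points lower in visceral fat; the microRNAs called higher, MIR127 apart, are of low or middle level, and the 5 called lncRNAs all lie above 0.

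The direction of a small microRNA difference depends on the scale. The median difference of all 74 microRNAs was -0.19 on the scale used here, 0.05 on the CPM scale, 0.02 with TMM and -0.41 as deposited. Over all classes the calls split into 27 higher and 16 lower here, 21 and 5 on the CPM scale, and 24 and 74 as deposited. Rises of 1 or more on the log2 scale are large beside these shifts, but not all kept their call. MIR200A, MIR379, MIR299, MIR3959, MIR487B and MIR369 lost it on the CPM scale. Of the 16 microRNAs that fell, 7 were still called lower with TMM and only MIR10B and MIR27A on the CPM scale, while all 16 were called lower as deposited.

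MicroRNAs of the DLK1-DIO3 cluster made up 19 of the 22 that rose. This is an imprinted region, expressed from 1 parental chromosome, and its microRNAs are made from the maternal copy. They are plentiful in embryonic tissue and the placenta. Of 64 listed members 54 are in the table and 25 passed the filter. 19 of the 25 rose in visceral fat and 0 fell, all 25 had a difference above 0, and their median was 1.45, against a median of -0.19 and 22 of 74 called higher over all microRNAs. Together they took 1.17% ± 0.249 of microRNA reads in visceral fat and 0.321% ± 0.0904 in subcutaneous fat (SD, n = 4), higher in 4 of 4 sheep. The members share a precursor region and a library, so they are not independent. A scarce member can pass the filter through its visceral reads alone, so that the count describes the 25 and not the whole cluster. MIR323C, MIR3959 and MIR134 passed in this way, with subcutaneous means of 2.79, 4.72 and 2.98. With a mean of at least 20 required, 13 of 15 tested members rose. The 19 became 11 without sheep 977, 14 on the CPM scale and 13 with DESeq2.

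MIR127, the most abundant of them, lies in RTL1, a retrotransposon-derived gene of the region that it silences in the mouse. It had 4671, 3934, 4825 and 3929 normalised reads in visceral fat of sheep 910, 918, 977 and 984, against 1792, 928, 1527 and 1233 in their subcutaneous fat. Every visceral library lay above every subcutaneous one, with a log2 difference of 1.70 (SE 0.21, limma adjusted p = 1.65e-07). MIR432 and MIR433 also overlap RTL1. MIR432 had 243, 299, 171 and 157 reads in visceral fat of the same sheep, against 57.8, 47.4, 66.5 and 66.7 in subcutaneous fat (log2 difference 1.81, SE 0.30). MIR433 had 87.1, 71.4, 62.9 and 54.3 in visceral fat, against 13.8, 18.4, 24.7 and 21.9 in subcutaneous fat (log2 difference 1.77, SE 0.38). Neither overlapped between depots.

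The largest difference of the cluster was that of MIR370, at 2.19 (SE 0.34, limma adjusted p = 6.21e-06). It had 151, 96.4, 115 and 103.4 reads in visceral fat, against 24.8, 24.6, 26.6 and 21.9 in subcutaneous fat. Its subcutaneous values were nearly level between sheep, and the spread lay in visceral fat. MIR543 (186, 80.5, 138 and 133 in visceral fat, against 27.5, 27.2, 31.8 and 30.6 in subcutaneous fat) and MIR485 (258, 115, 107.9 and 118, against 30.3, 34.2, 40.8 and 26.3) did not overlap between depots either, with differences of 2.10 and 2.07. In visceral fat of sheep 910 MIR485 stood above the other 3 sheep.

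MIR382 (log2 difference 1.86), MIR154B (1.55), MIR493 (1.54) and MIR409 (1.51) rose without any overlap between depots. MIR379, MIR411A, MIR329B, MIR495 and MIR487B rose by 1.303, 1.11, 1.16, 1.33 and 1.20. The least abundant members called were MIR323C, MIR3959, MIR299 and MIR369, with subcutaneous means of 2.79, 4.72, 5.68 and 6.77 reads and differences of 1.92, 1.63, 1.45 and 1.41. In MIR369 the depots overlapped. The 6 tested members that were not called, MIR380, MIR323A, MIR494, MIR3958, MIR134 and MIR412, had differences from 0.18 (MIR3958) to 1.29 (MIR134). MIR3958 averaged 48.5 reads in visceral and 36.3 in subcutaneous fat, more than several neighbours that rose.

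**Figure D2:**
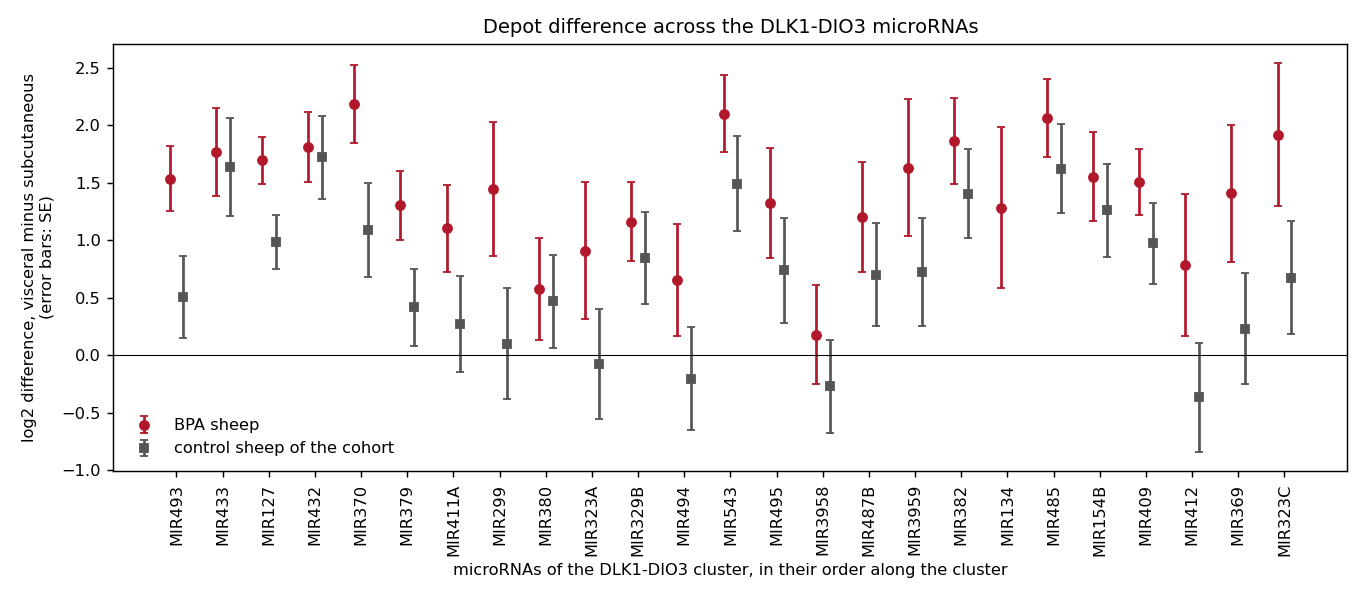
The 25 tested microRNAs of the DLK1-DIO3 cluster are in their order along the cluster (x), with the log2 difference, visceral minus subcutaneous (y), in BPA sheep (red circles) and control sheep of the cohort (grey squares); bars are SE. All 25 red points lie above 0, from 0.18 at MIR3958 to 2.19 at MIR370; MIR134 has no control value because it did not pass the filter there.

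LOC105606646, listed in the lncRNA table, spans most of this cluster in the RefSeq annotation used for names, which calls it a protein-coding gene. Its reads cannot be told apart from those of the small RNAs inside it. It had 342, 489, 655 and 443 reads in visceral fat of sheep 910, 918, 977 and 984, against 93.5, 129, 140.2 and 106.4 in subcutaneous fat (log2 difference 2.01, SE 0.27, limma adjusted p = 0.00274). The depots were far apart in each sheep. Of the 33 snoRNAs that lie inside it, 6 passed the filter. None was called. Without sheep 918, 3 of 7 tested were called higher, and 1 of 6 was with a term for library set and no sheep block. 4 of the 6 had subcutaneous means from 1.71 to 3.73 and passed only through their visceral reads, so their common direction is no result. LOC114109209 (14.4 ± 7.26 in visceral and 3.73 ± 1.71 in subcutaneous fat) and LOC114109212 (8.86 ± 4.63 and 1.71 ± 1.55) are among these 4. LOC114109215, the most abundant, had 57.0 ± 45.8 in visceral and 14.96 ± 7.66 in subcutaneous fat, and its depots overlapped.

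The miR-200 family marks epithelium, where it holds down the ZEB repressors. MIR200B had 208, 146, 101.2 and 82.5 reads in visceral fat of sheep 910, 918, 977 and 984, against 27.5, 54.4, 1.42 and 16.4 in subcutaneous fat. All visceral values lay above all subcutaneous ones, with a log2 difference of 2.98 (SE 0.45, limma adjusted p = 4.33e-06), the largest among the microRNAs. MIR200A, its cluster partner, had 15.1, 9.07, 18.7 and 10.3 in visceral fat, against 2.75, 14.04, 0 and 2.19 in subcutaneous fat, where the reads of sheep 918 exceeded its visceral value (log2 difference 1.91, adjusted p = 0.0244). It passed the filter through its visceral reads, and its call was lost without sheep 977 or 984, on the CPM scale and with edgeR or DESeq2.

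MIR200C, a family member from another locus, went the other way. It had 15.1, 48.8, 5.10 and 11.5 reads in visceral fat, against 16.5, 166, 16.6 and 38.3 in subcutaneous fat (log2 difference -1.26, limma adjusted p = 0.0196). The depots overlapped, since sheep 918 was high in both, and the call was lost without sheep 977 or 984 and without the sheep block. Summed over the 3, the family took 212 to 430 CPM of microRNA reads in visceral fat and 28.9 to 332 in subcutaneous fat, higher in visceral fat in 4 of 4 sheep. The part of mesothelium or other epithelium in these values was not tested.

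MIR218A lies in SLIT3, a gene for a secreted guidance protein whose introns carry this microRNA. It had 125.5, 105.5, 106.2 and 107.2 reads in visceral fat and 24.8, 9.65, 34.7 and 9.85 in subcutaneous fat, with a log2 difference of 2.63 (SE 0.38, limma adjusted p = 2.66e-06). The visceral value of sheep 910 lay above those of the other 3 sheep, which were close together, and the subcutaneous values varied more. On the list of microRNAs reported to slow fat cell formation 6 were tested. MIR218A was the 1 that rose, and MIR27A and MIR221 fell. Over all microRNAs 29.7% were called higher and 21.6% lower. The median of the list was -0.37, beside -0.19 over all microRNAs. That background includes the 25 DLK1-DIO3 members, all above 0, so it does not set the list apart from microRNAs outside the cluster.

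MIR10B fell most among the microRNAs. It lies at HOXD4 among the HOX genes that pattern the body axis. It had 792, 1407, 1238 and 1179 reads in visceral fat, against 3968, 3220.0, 3882 and 4769 in subcutaneous fat (log2 difference -1.80, SE 0.22, limma adjusted p = 1.65e-07). The depots did not overlap. MIR10A, its paralogue in another HOX cluster, averaged 1709 ± 305 in visceral and 1778 ± 681 in subcutaneous fat, a difference of -0.01 (SE 0.22). The mature forms of these 2 differ little, and reads may be shared between them.

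MIR21, abundant in fibrous and inflamed tissue, had 241, 400.3, 664 and 695 reads in visceral fat, against 1633, 945, 1589 and 1891 in subcutaneous fat (log2 difference -1.67, SE 0.24, limma adjusted p = 2.66e-06). It was lower in visceral fat in each sheep, by the widest margin in sheep 910. Endothelial MIR221 had 1386, 1122, 785 and 1012 in visceral fat, against 2134, 1566, 2038 and 2764 in subcutaneous fat (log2 difference -0.98, SE 0.22). Both lost their call on the CPM scale.

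All 3 measured members of the miR-23/27/24 clusters were called lower in visceral fat, beside 21.6% of all microRNAs. That share includes the 25 DLK1-DIO3 members, of which 0 fell. MIR23A had 3184, 4861, 5099 and 4595 reads in visceral fat, against 9505, 8602, 10143 and 9977 in subcutaneous fat (log2 difference -1.13, SE 0.21). MIR27A, which holds back fat cell formation in mouse cells, had 3234, 1675, 2487 and 3503 in visceral fat, against 4540.3, 6276, 4521 and 6225 in subcutaneous fat (log2 difference -1.02, SE 0.22). MIR23B, from the sister cluster, fell by 0.66 on the log2 scale. MIR23B lost its call on the CPM scale, with TMM, with edgeR and with a term for library set. MIR23A lost its call on the CPM scale. No member overlapped between depots, against 50% of all microRNAs. MIR23A and MIR23B differ little, so reads may be shared.

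**Figure D3:**
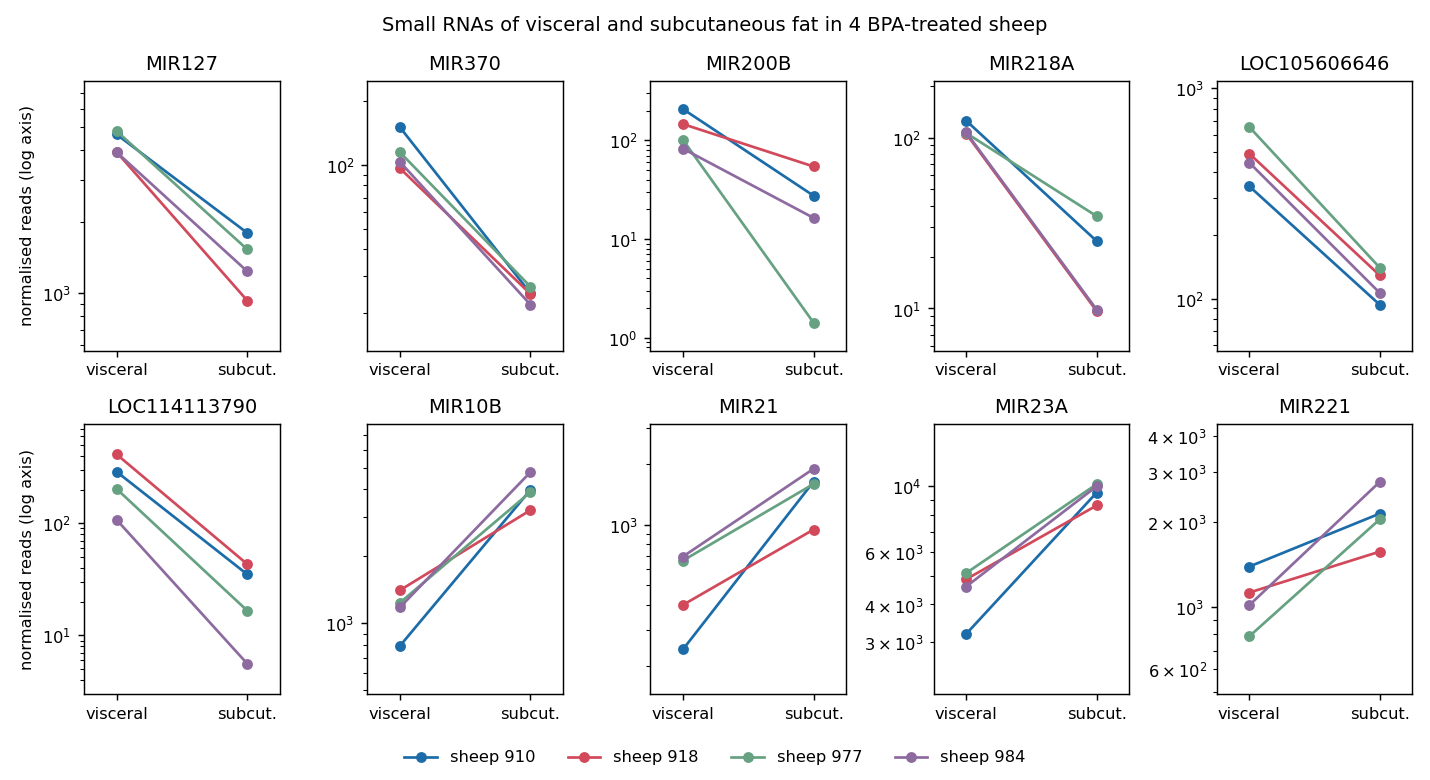
Each panel shows 1 small RNA with its normalised reads (y, log axis) in visceral fat (left) and subcutaneous fat (right), and lines join the libraries of a sheep. The 6 panels of MIR127, MIR370, MIR200B, MIR218A, LOC105606646 and LOC114113790 slope down from visceral to subcutaneous in every sheep, and those of MIR10B, MIR21, MIR23A and MIR221 slope up in every sheep.

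Of 16 tested microRNAs listed as favouring fat cell formation, 6 fell and 0 rose (median -0.43). Over all microRNAs 21.6% were called lower and the median was -0.19. That background includes the 25 DLK1-DIO3 members, all above 0 and none on this list or those below. MicroRNAs outside the cluster therefore lie lower than it. A background without the cluster was not computed, so these lists are not set apart from other microRNAs. The 6 became 3 without sheep 910 and 1 without sheep 977, without sheep 984 or with edgeR. These were MIR21, MIR199A (-0.76), MIR152 (-0.73), MIR26B (-0.61), MIR30B (-0.61) and MIR103 (-0.53). MIR148A, which marks fat cells, had 2871 ± 970 reads in visceral and 3091 ± 798 in subcutaneous fat, and MIR30A 3212 ± 357 and 2760.0 ± 705. On the list for insulin and glucose handling 3 of 7 fell, MIR29A, MIR26B and MIR103, with a median of -0.55, beside the same 21.6%. The 3 became 1 without sheep 910, 977 or 984, and with edgeR. MIR29A, which lowers insulin signalling in mouse fat cells, had 1945, 1251, 2313 and 1783 reads in visceral fat, against 3830, 2727, 3498 and 3439 in subcutaneous fat (log2 difference -0.91, SE 0.20). On the inflammation list 2 of 5 fell, MIR21 and MIR99A (-0.61), with a median of -0.45, again beside 21.6%. MIR99A lost its call without sheep 910, 918 or 984 and kept it in 6 of 16 alternative settings. None of 4 members tested of the miR-17 family and clusters was called by limma, with differences from -0.72 to 0.16. On the CPM scale 0 members of these 4 lists were called. MIR191, called at -0.57, belongs to no list and is named here because it completes the 38.

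Let-7 microRNAs, abundant in mature tissue, took 60.9% ± 7.82 of microRNA reads in visceral and 58.6% ± 2.93 in subcutaneous fat. The share was higher in visceral fat in 1 of 4 sheep, and the difference of 2.36 percentage points became -1.49 without sheep 910. Only MIRLET7I of 7 tested members was called, at -0.53 (limma adjusted p = 0.0465), with 16392, 20256, 16302 and 17579 reads in visceral fat and 23984, 33174, 20803 and 25156 in subcutaneous fat. Over all microRNAs 21.6% were called lower, and the call of MIRLET7I was lost without each sheep in turn, with edgeR, with TMM and on the CPM scale. Visceral fat of sheep 910 stood apart. MIRLET7B had 273800.0 reads there and 88480.0 to 105950.0 in the other 3 visceral libraries, against 109480.0 to 141940.0 in subcutaneous fat, and its difference of 0.08 became -0.18 without that sheep. MIRLET7C had 75599 and MIRLET7D 14305 in that library, against 34578 to 39358 and 4990.0 to 5918 in the other visceral libraries. The differences of MIRLET7A, MIRLET7C, MIRLET7D, MIRLET7F and MIRLET7G ran from -0.37 to 0.20. Members of this family differ by 1 or a few bases, so reads may be shared between them.

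All 5 called lncRNAs were higher in visceral fat. LOC114113790 had 288, 411, 202 and 107.2 reads in visceral fat, against 35.1, 43.2, 16.6 and 5.60 in subcutaneous fat (log2 difference 3.45, SE 0.33, limma adjusted p = 0.000297), the largest difference of any feature called. Sheep kept the same order in both depots. LOC114118460 had 527, 352, 261 and 109.8 reads in visceral fat, against 89.6, 143, 48.7 and 25.2 in subcutaneous fat (log2 difference 2.08). LOC114112617 had 845, 2136, 792 and 503 in visceral fat, against 197, 966, 151 and 142 in subcutaneous fat (log2 difference 1.86). In LOC114112617 sheep 918 was highest in both depots. LOC114112794, named as the last of the 5, had 9433, 3814, 5257 and 6865 in visceral fat, against 2428, 2943, 1779 and 2417 in subcutaneous fat (log2 difference 1.35). The files and the annotation give no role for these 4 genes. LOC114118460 and LOC114112617 lost their call without the sheep block.

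The 2 snoRNAs with the smallest p were not called. LOC114113393, in the elongation factor gene EEF1B2, had 164, 182.4, 81.3 and 133 reads in visceral fat, against 31.4, 71.1, 38.5 and 52.6 in subcutaneous fat (log2 difference 1.52, limma adjusted p = 0.104). LOC114115069, in RACK1, the gene of a protein bound to ribosomes, had 6.76, 3.84, 4.58 and 8.37 in visceral fat, against 12.3, 18.3, 21.5 and 21.8 in subcutaneous fat (log2 difference -1.52, adjusted p = 0.104). Neither overlapped between depots. Without sheep 918, that is within the later library set, 14 snoRNAs were called, 6 higher and 8 lower. Of the 6 higher, 3 lie inside LOC105606646, where 7 were tested in that fit. As stated above, most tested snoRNAs there passed the filter only through their visceral reads. Their direction is therefore no result.

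Subcutaneous fat of sheep 918 stood apart in a group of snRNAs. LOC114109164 had 1.79 to 14.5 reads in visceral fat, against 101.1 in that library and 10.3 to 21.2 in the other subcutaneous ones (log2 difference -1.63, limma adjusted p = 0.0586). LOC114109197 had 1.79 to 13.1 in visceral fat, against 98.8 in that library and 8.12 to 21.2 in the other subcutaneous ones (log2 difference -1.599, adjusted p = 0.0612). These snRNA entries may be copies that share reads.

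The depot difference of BPA sheep was then set against that of the control sheep of the cohort, as the interaction of depot and treatment over 16 libraries. Of 463 features tested, 3 were called (0.648%), and all 3 were snRNAs (3 of 38, 7.89%). None of 73 microRNAs, 198 snoRNAs or 154 lncRNAs was called by limma, with 3, 4 and 5 at an unadjusted p under 0.05, and edgeR and DESeq2 called 0 in each of these classes. The DLK1-DIO3 microRNAs had a median interaction of 0.66 and 0 of 24 were called. In the cohort's controls 9 of 25 members rose (17.6% of all microRNAs), with a median of 0.73. LOC105606646 had an interaction of 1.27 (SE 0.41, limma adjusted p = 0.657). Its depot differences ran from 1.74 to 2.05 in BPA sheep and from 0.02 to 1.12 in controls, and an exact two-sided permutation of treatment over the 8 sheep gave p = 0.0286, the smallest it can give, not adjusted for the features tested. MIR127 had an interaction of 0.71 (SE 0.28, limma adjusted p = 0.694), and the permutation gave p = 0.0571. The snoRNA LOC114118175 had an interaction of -1.59 (limma adjusted p = 0.717) and a permutation p of 0.0286. These sheep numbers do not show that the depot difference of the cluster is the same in both treatments.

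LOC114117093 had 84.0, 138, 145 and 125.8 normalised reads (scaled over the 16 libraries) in visceral fat of BPA sheep 910, 918, 977 and 984, and 133, 219.9, 104 and 283 in their subcutaneous fat. Control sheep 902, 908, 924 and 928 had 241, 380.0, 242 and 305 in visceral fat, and 91.04, 74.8, 139 and 125.8 in subcutaneous fat. Of the BPA sheep 3 of 4 had fewer reads in visceral fat, and of the controls 4 of 4 had more there. The visceral values of the 2 treatments did not overlap. The difference of the depot differences was -1.95 (SE 0.31, limma adjusted p = 9.68e-08).

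Its near twin LOC114117060 averaged 145 ± 33.6 in visceral and 219 ± 74.4 in subcutaneous fat of BPA sheep (SD, n = 4), and 349 ± 102.3 and 146 ± 35.6 in controls, with an interaction of -1.81 (SE 0.32, limma adjusted p = 6.60e-07). The 2 correlated at r = 0.989 over the 16 libraries and may share reads, so they count as 1 observation. limma gave all snRNAs 1 common spread at a given level, and these adjusted p-values rest on it. With edgeR they were 0.000268 and 0.00184. The same exact permutation gave p = 0.0286 for each, as for LOC105606646 and LOC114118175, which were not called. That is the smallest p it can give, not adjusted for the features tested. These 2 were picked for their interaction in the same libraries, so the permutation is no separate evidence. LOC114109241, the third, had 12.2, 8.22, 3.58 and 4.75 in visceral fat of BPA sheep and 7.83, 93.5, 7.45 and 22.1 in their subcutaneous fat, and 11.02 ± 4.39 and 6.58 ± 1.596 in controls. Its interaction of -2.02 (limma adjusted p = 0.0437) turns on sheep 918 and became -1.48 without it (adjusted p = 0.365), and the exact permutation p was 0.0857.

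Library set and group were tangled here, because 3 of 4 visceral control libraries were early and 1 of 4 visceral BPA libraries was. With a term for the set the interaction of LOC114117093 was -2.09 and that of LOC114117060 was -1.91, both still called. Outside the cohort, the depot difference of LOC114117093 was 1.66 in prenatal T sheep and 1.16 in their controls. That of LOC114117060 was 1.43 and 0.80. Neither was called in prenatal T sheep (limma adjusted p = 0.0529 and 0.0644). Both were called in the controls of each cohort. In BPA sheep alone neither depot difference was called, at -0.52 and -0.59 (limma adjusted p = 0.38 for each).

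**Figure D4:**
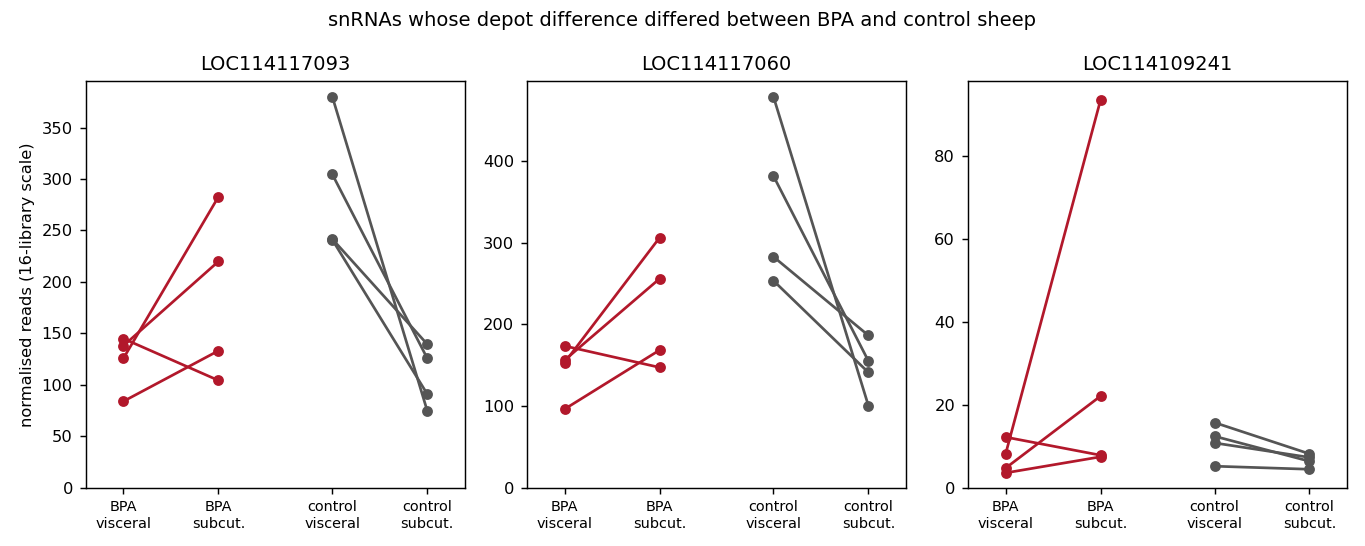
Normalised reads (y, from 0, scaled over 16 libraries) of 3 snRNAs in visceral and subcutaneous fat, with a line for each sheep: BPA sheep in red on the left, control sheep in grey on the right. For LOC114117093 and LOC114117060 3 of 4 BPA lines rise to the right and all control lines fall; for LOC114109241 sheep 918 alone reaches 93.5.

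The 43 calls were looked up in the 3 other sets of sheep, which share no library with the BPA sheep or with each other. All 43 had the same direction in the cohort's controls and 27 were called there, where 76.2% of all 428 shared features had the same direction and 11.5% were called. In prenatal T sheep 40 of 43 had the same direction and 21 were called (50.6% and 8.5% over all features). In the controls of the T cohort 38 of 40 had it and 29 were called (66% and 15.4%). Since 38 of the 43 are microRNAs, the share over microRNAs alone is the nearer background. Among them 38 of 38, 35 of 38 and 33 of 35 had the same direction, in the same order of sets. Over all shared microRNAs it was 83.6%, 78.4% and 78.6%. Of the called microRNAs, 24 of 38, 20 of 38 and 26 of 35 were also called there. The 11.5%, 8.5% and 15.4% called are over all classes, so they are no fair background for these counts. In the cohort's controls 17.6% of microRNAs were called higher, not counting those called lower. Of the 43, 15 were called in all 4 sets, all of them microRNAs. MIR200B, MIR218A, MIR127, MIR370, MIR382, MIR432, MIR433, MIR485 and MIR154B were higher in visceral fat. MIR10B, MIR23A, MIR23B, MIR152, MIR221 and MIRLET7I were lower.

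Sizes varied between the sets. MIR200B differed by 2.98 in BPA sheep and 4.07 in their controls, and by 3.77 in prenatal T sheep and 3.85 in theirs. MIR10B differed by -1.80 in BPA sheep and -1.70 in their controls, and by -1.82 in prenatal T sheep and -2.27 in theirs. MIR21 was less alike, at -1.67 in BPA sheep and -2.29 in their controls, 0.14 in prenatal T sheep and -1.14 in theirs. LOC114113790 differed by 3.45 in BPA sheep, 2.33 in their controls, 1.70 in prenatal T sheep and 1.96 in theirs. MIR200C, MIR30B, MIR21, MIR299 and MIR3959 had the opposite sign in at least 1 other set, and 11 of the 43 were called in no other set, among them MIR379, MIR411A, MIR487B, MIR323C and LOC114118460. No test of the differences between all 4 sets was made, and none of these 43 passed the interaction test against the cohort's controls.

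**Figure D5:**
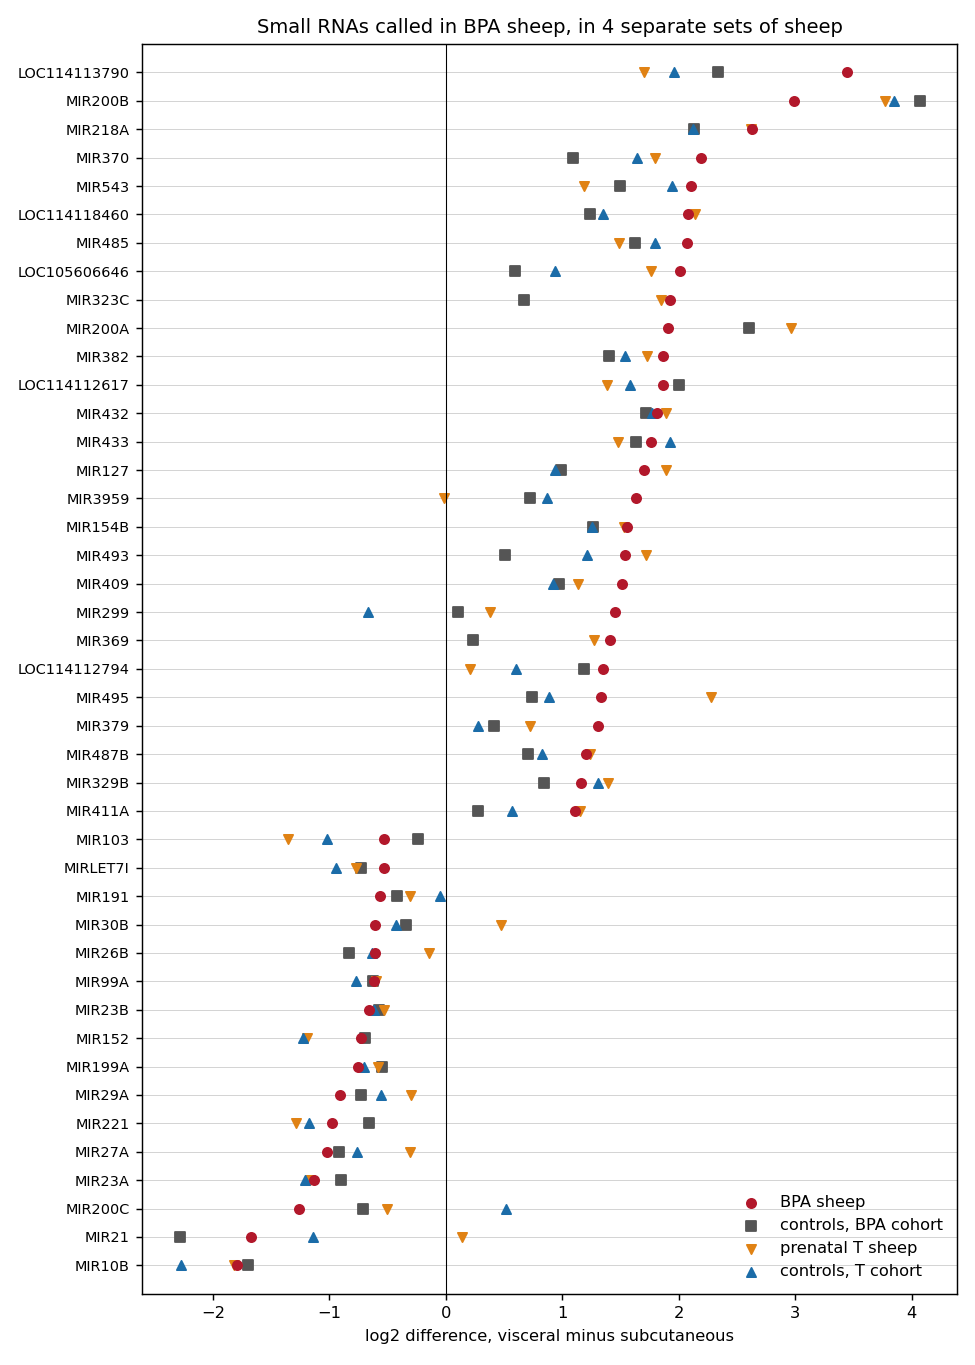
The 43 small RNAs called in BPA sheep run down the page, with the log2 difference, visceral minus subcutaneous (x), in BPA sheep (red circles), the controls of their cohort (grey squares), prenatal T sheep (orange triangles) and the controls of the T cohort (blue triangles). Nearly all marks of a line lie on 1 side of 0, with MIR21, MIR30B, MIR200C, MIR299 and MIR3959 as the exceptions.

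Markers of other cell types were read in CPM of microRNA reads. MIR133 of striated muscle had 69.3 to 700.0 in visceral and 114 to 300.1 in subcutaneous fat, MIR143 of smooth muscle 17458 to 75231 and 25751 to 40313, MIR150 of white blood cells 2542 to 3933 and 2849 to 3906, and MIR221 of endothelium 1600.3 to 2363 and 2219 to 4295. Each of these lists had 1 member in the table. All 4 ranges overlapped between depots, as did that of the summed epithelial family above. Only that sum was higher in visceral fat in 4 of 4 sheep, and MIR200C within it was lower there in every sheep. Of the fat cell list 3 of 7 were in the table, and their sum was 22900.0 to 89324 in visceral and 33842 to 47588 in subcutaneous fat. The part that other cell types play in the depot differences was not tested.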

How the data were processed

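Adipose tissue RNA was made into small RNA libraries, per the labels' protocols, and the submitters' processing notes list STAR 2.6.0c, featureCounts 1.6.1 and cutadapt 3.2. No source used here names a genome build, so RefSeq (assembly ARS-UI_Ramb_v3.0) served only for names, order and neighbours. It matched 105 of 105 microRNA, 621 of 694 snoRNA, 1010 of 1148 snRNA and 1372 of 2973 lncRNA symbols. The deposited values are a signal (reads divided by a size factor per library, set by the authors in each depot and class); 100% of the values gave whole reads at a tolerance of 1e-05. Deposited levels of the 2 depots are therefore on different scales, and the 8 libraries of a class were rescaled by the median ratio before testing.

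Features with a mean of at least 5 were taken as log2(value + 1), and limma 3.58.1 under R 4.3.3 fitted depot with a block for sheep and a mean trend of the spread. On this scale fold changes of scarce features come out too small. The interaction used the 16 libraries of the cohort. edgeR 4.0.16 and DESeq2 1.42.0, run on the recovered reads, were alternatives, and the code was tested on simulated data. Depots of 1 sheep are paired by the animal named in the labels. The median r of their deviations from the depot means was 0.19 within a sheep (over 0.1 in 3 of 4). Between sheep it was -0.09 (over 0.1 in 3 of 12). The depots of sheep 910 had r = 0.05, and its visceral fat had 0.18 with subcutaneous fat of sheep 918. Deviations from a depot mean sum to 0, so the between-sheep median is no separate evidence of pairing. No 2 libraries of a depot were alike within sampling noise (chi-square per degree of freedom 14.1 to 244). The sheep are separate animals, and reads carry no molecular identifiers.

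Named were the 10 microRNAs with the largest called difference each way, 4 of each other class each way or, without a call, the 2 of smallest p, and every called list member, let-7 member and interaction call. Members and lists were chosen with earlier results of these data known. Figures were drawn with matplotlib 3.10.9. No sequence is shown, since none was at hand for these features.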

Additional observations from a re-analysis of the deposited data

Results flagged for a closer look

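In 8 groups of 4 libraries, among all named features and read shares looked at in each depot, 1 library lay far from the other 3. These are 6.45% of the groups looked at, and chance flags about 1 in 20. Visceral fat of sheep 910 accounted for 5 of the 8: MIRLET7B at 273800.0 normalised reads, MIRLET7C at 75599, MIRLET7D at 14305, MIR485 at 258 and MIR218A at 125.5 all lay above the other 3 visceral libraries. Visceral fat of sheep 918, the early library, had 35.2 reads of MIR3959 against 10.3 to 11.9 in the others, and the low snoRNA share of 0.914%. Subcutaneous fat of sheep 918 had 966 reads of LOC114112617, with 142 to 197 in the others.

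The depot difference passed the interaction test between BPA and control sheep for 3 snRNAs. LOC114117093 (-1.95) and LOC114117060 (-1.81) count as 1 observation. LOC114109241 (-2.02) turns on sheep 918 and lost its call without it (adjusted p = 0.365), without the sheep block (0.179), on the CPM scale (0.115) and with TMM (0.181), all in limma. The call was also lost without sheep 902, 924, 928 or 984, and kept without sheep 908, 910 or 977. It was kept in limma with a term for library set (adjusted p = 0.00413), with edgeR (0.00299) and with DESeq2 (0.0392).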

How the results depend on the processing

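With 4 sheep, the calls changed most with the scale and with single sheep. All calls numbered 43, 98 as deposited and 26 on the CPM scale, and 31 to 54 when 1 sheep was left out. MicroRNA calls numbered 38, 18 on the CPM scale, and 21 to 39 leaving out 1 sheep. SnoRNA calls numbered 0, 42 as deposited, 1 with TMM, 2 with DESeq2, 1 with a term for library set, and 0 to 14 leaving out 1 sheep. SnRNA calls numbered 0, 8 as deposited, 3 on the CPM scale, 5 with TMM, 3 with edgeR, 3 in 1 fit of the 16 libraries, and 0 to 3 leaving out 1 sheep. LncRNA calls numbered 5, 3 without the replicate block, 3 with a set term, 9 without a filter, 12 with DESeq2, and 6 to 8 leaving out 1 sheep. DLK1-DIO3 calls numbered 19, 14 on the CPM scale, 13 with DESeq2, and 11 to 20 leaving out 1 sheep. Interaction calls numbered 3, 5 with edgeR, 5 with a set term, and 2 to 5 leaving out 1 sheep. Without the sheep block 39 features were called, all 39 among the 43. The difference of MIRLET7B, 0.08, was -0.11 as deposited and ran from -0.18 (without sheep 910) to 0.29 leaving out 1 sheep. The difference in the lncRNA share, 0.06 percentage points, ran from -0.40 (without sheep 910) to 0.40, and that in the let-7 share, 2.36, from -1.49 (without sheep 910) to 3.92. Calls shared by direction with the other sheep numbered 24, 23 and 22 on the CPM scale and 95, 66 and 76 as deposited, in the cohort's controls, prenatal T sheep and the T cohort controls. The cause was not tested. Shares of under 1% rest on 1174 to 6252 snRNA reads a library.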
